A study of Homo sapiens with 6 samples.

Results

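The report concerns 40 human genes whose products write, erase or read marks on RNA: N6-methyladenosine (m6A), N4-acetylcytidine (ac4C), adenosine-to-inosine editing and the modified bases of transfer RNA. They were chosen by gene symbol and make up 40 of the 58735 genes in the deposited table. RNA sequencing covered 6 libraries of LX-2, a long-established line of human hepatic stellate cells widely used as a culture model of liver fibrosis. In the TGF-β1 group, 3 libraries came from cells that received siRNA (short RNA that directs mRNA cleavage) against NSUN2, a cytosine methyltransferase of RNA, and 48 hours later TGF-β1 at 5 ng/ml for 24 hours. In the untreated group, 3 libraries came from cells that received the NSUN2 siRNA and no TGF-β1; their harvest time is not labelled. The genotype label of all 6 is WT, and the siRNA is common to both groups, so each difference below sets TGF-β1 against none in siRNA-treated cells. Any difference in time since transfection between the groups cannot be told apart from TGF-β1. The design text of the series names NAT10, one of the 40 genes, as the siRNA target where the sample labels name NSUN2, and the labels were followed. The replicates are called biological with no word on separate cultures, so p-values measure only the spread between these libraries. All values are for bulk RNA, in which fewer cells of a kind and less RNA per cell cannot be told apart.

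Marks on RNA are placed by writer enzymes, removed by eraser enzymes and bound by reader proteins, which alter how an RNA is spliced, exported, translated or degraded. The m6A mark is set on mRNA mainly by a nuclear complex in which METTL3 is the catalytic subunit, and it has been studied in stellate cells for its bearing on fibrogenic mRNAs. Transfer RNA carries most of the other marks treated here, which tune its folding and stability and the decoding of codons.

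Library totals ran from 25828504 to 29978361 counts with TGF-β1 and from 26957170 to 30034762 counts without. NSUN2 had 103, 97.0 and 102 normalised CPM (counts scaled to a common library total) in the TGF-β1 libraries and 81.4, 82.9 and 84.4 CPM in the untreated libraries. NSUN2 was thus higher in all 3 TGF-β1 libraries, with a log2 fold change of 0.28 ± 0.04 (SE, adjusted p = 1.57e-06), and its transcript was present in every siRNA library. Cells without siRNA were not analysed here, so the extent of knockdown was not measured, for NSUN2 or for NAT10. TGF-β response genes moved strongly, with log2 fold changes of 5.70 for PMEPA1 and 2.40 for SMAD7. Of the stellate cell markers, COL1A1 and VIM were abundant, and PDGFRB averaged 76.2 CPM with TGF-β1 and 22.6 CPM without. COL1A1, COL1A2, COL3A1, PDGFRB and VIM rose, COL1A2 at a low level (3.18 CPM with TGF-β1, 1.303 CPM without). The protein-coding RGS5 gene was not called (1.79 CPM with TGF-β1, 1.86 CPM without). ACTA2, a marker of activated stellate cells, fell, averaging 4.29 CPM with TGF-β1 and 7.15 CPM without (log2 fold change -0.74 ± 0.16, adjusted p = 1.71e-04), as did HAND2 (-0.74 ± 0.17); the retinoid marker LRAT was at 0, and DES averaged 0.0760 CPM with TGF-β1 and 0.0640 CPM without.

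Markers of other liver cells were mostly near 0, with exceptions. Of 8 hepatocyte markers 1 was tested and none was called: ALB, APOB, TTR and CYP3A4 were at or near 0, and SERPINA1 averaged 22.1 CPM with TGF-β1 and 24.8 CPM without. Of 6 macrophage markers 2 were tested: CSF1R rose (12.3 CPM with TGF-β1, 4.34 CPM without) and CD14 fell (3.71 CPM with TGF-β1, 8.49 CPM without), while PTPRC, CD68, MARCO and AIF1 averaged 0.240 CPM or less. Of 6 endothelial markers 1 of 3 tested rose, TEK (36.4 CPM with TGF-β1, 20.3 CPM without). PECAM1 and VWF were not called, VWF at 0.607 CPM with TGF-β1 and 1.15 CPM without. Of 5 cholangiocyte markers, KRT7 rose (4.30 CPM with TGF-β1, 2.83 CPM without) and SOX9 fell (53.03 CPM with TGF-β1, 68.97 CPM without). Summed levels with TGF-β1 and without were 21.3 to 23.2 against 23.6 to 27.4 CPM for hepatocyte markers, 14.99 to 17.9 against 11.6 to 14.6 CPM for macrophage markers, 35.9 to 40.1 against 19.8 to 25.6 CPM for endothelial markers and 56.8 to 58.5 against 70.99 to 72.7 CPM for cholangiocyte markers. The hepatocyte, endothelial and cholangiocyte sums rest mostly on single genes, SERPINA1, TEK and SOX9. The part of these markers of other liver cells in the results below was not tested.

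All 40 genes were expressed well enough to be tested, and their differences were small. In the TGF-β1 libraries 16 were higher and 2 were lower, and 22 did not pass the test (edgeR's quasi-likelihood test over 17215 genes, with a threshold of 0.05 on the Benjamini-Hochberg adjusted p). The share called was 45.0% of the 40, against 38.9% of all tested genes. For higher calls it was 40% against 20.2% of all genes, and for lower calls 5.00% against 18.7%. In absolute size the median log2 fold change was 0.13 over the 40 genes and 0.22 over all tested genes, which were not matched to the 40 for level. IGF2BP1, an m6A reader, was the single gene of the 40 to reach an absolute log2 fold change of 0.5, a size that 22.4% of all tested genes reached. Log2 fold changes ran from -0.37 for the editing enzyme ADARB1 to 0.76 for IGF2BP1, with a median of 0.12 over the 40 genes and -0.01 over all tested genes. The TGF-β1 values lay wholly above the untreated values for 19 genes and wholly below them for 3, where 24.1% and 23.3% of all tested genes did so (47.4% in either direction).

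The balance of higher to lower calls depended on how libraries were scaled. With library totals alone in place of TMM factors, the median over all genes moved to -0.13 (log2) and that of the 40 genes to -0.00, and 6 of the 40 were called higher and 11 lower. The 11 were ADARB1 and TRMT112, the writers METTL14 and RBM15, the erasers FTO and ALKBH5, the readers IGF2BP2, YTHDF3 and YTHDC2, and ADAR and ELP3. All but ADARB1 and TRMT112 were not called with TMM factors, and their log2 fold changes moved by about the shift of all genes. With upper-quartile factors 7 were called higher and 3 lower, and with DESeq2 size factors 16 and 2. Over all 17215 tested genes, library totals gave 2019 higher and 5354 lower calls, and upper-quartile factors 2821 and 3897. DESeq2 size factors gave 3481 and 3217. Under all 3 of these scalings, 8 of the 18 calls were kept: IGF2BP1, YTHDF1, WDR4, TRMT1, FTSJ1 and PUS1 as higher, and ADARB1 and TRMT112 as lower. All but TRMT112 were also called with any 1 library left out; without TGF-β1 library 1 or untreated library 3, 1 gene was called lower in place of 2. METTL3, RBM15B, CBLL1, HNRNPA2B1, YTHDC1, METTL1, TRMT61A, PUS7 and ALKBH8 were not called with upper-quartile factors or library totals, and CTU1 was not called with library totals (adjusted p = 0.0502).

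**Figure D1:**
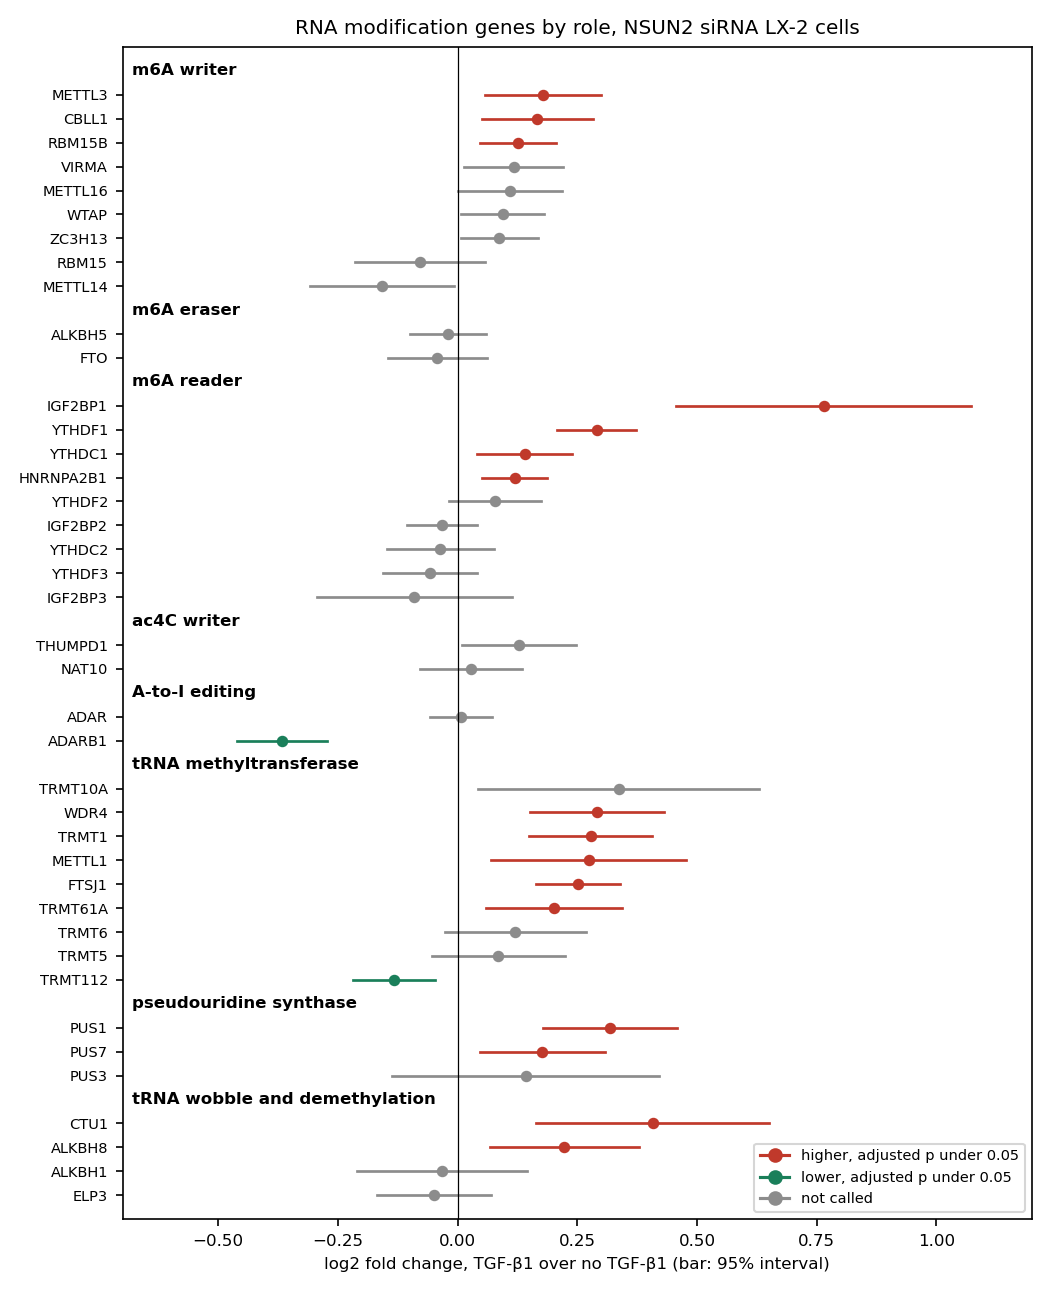
Log2 fold change of each of the 40 genes, TGF-β1 minus untreated (x axis), grouped by mark and role, with bars for 95% intervals of the edgeR fit and colour for the call. IGF2BP1 lies farthest to the right at 0.76 and ADARB1 farthest to the left at -0.37; most of the other genes lie within 0.3 of 0.

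**Figure D2:**
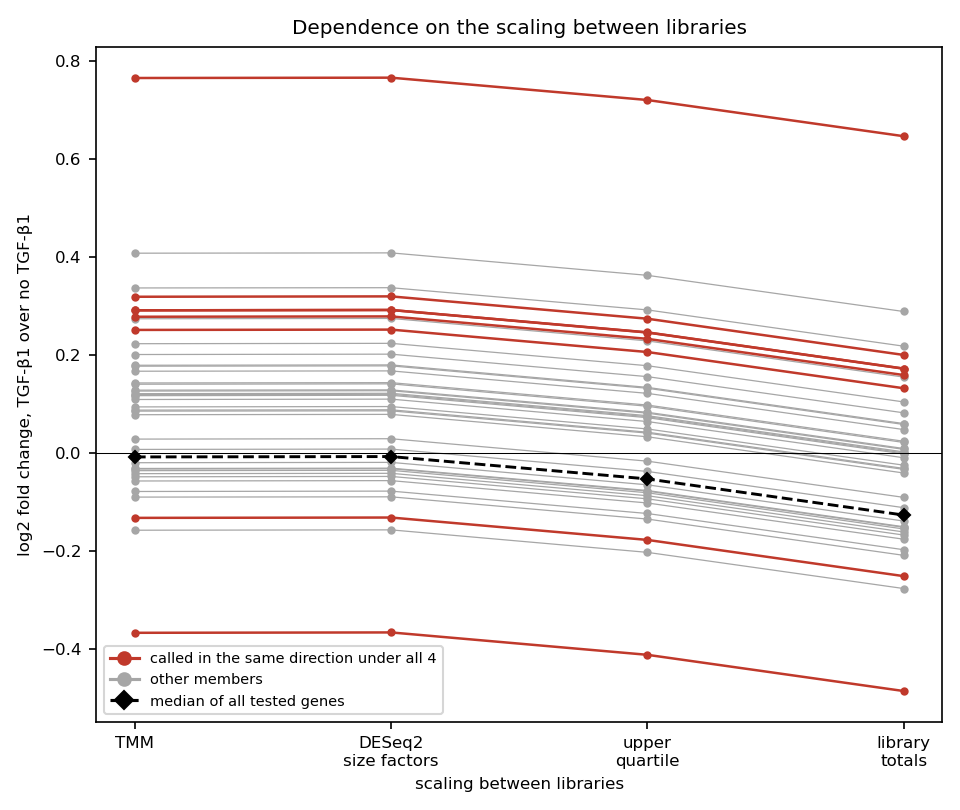
Log2 fold change of the genes under each of 4 scalings of the libraries, with the median of all genes. With library totals alone the median of all genes sits at -0.13, and IGF2BP1, YTHDF1, WDR4, TRMT1, FTSJ1 and PUS1 stay above 0 and called.

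Promoter sequences are shown for 3 genes whose calls held under every scaling and with every library left out, 1 each from the readers, the editing enzymes and the tRNA methyltransferases. Each window runs from 250 bases before to 50 bases after the RefSeq gene start on build GRCh38.p14, on the gene's own strand, at chr20:63216082-63216381 (minus strand) for YTHDF1, chr21:45074328-45074627 (plus strand) for ADARB1 and chr21:42879490-42879789 (minus strand) for WDR4. Capitals mark matches, on either strand, to the GC box GGGCGG and the E-box CACGTG.
YTHDF1: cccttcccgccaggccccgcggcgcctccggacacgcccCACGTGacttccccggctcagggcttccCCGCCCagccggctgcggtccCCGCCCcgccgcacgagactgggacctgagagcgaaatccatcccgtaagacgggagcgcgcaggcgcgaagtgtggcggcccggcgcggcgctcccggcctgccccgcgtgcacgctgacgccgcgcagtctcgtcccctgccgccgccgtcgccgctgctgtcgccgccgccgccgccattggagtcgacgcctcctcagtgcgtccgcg
ADARB1: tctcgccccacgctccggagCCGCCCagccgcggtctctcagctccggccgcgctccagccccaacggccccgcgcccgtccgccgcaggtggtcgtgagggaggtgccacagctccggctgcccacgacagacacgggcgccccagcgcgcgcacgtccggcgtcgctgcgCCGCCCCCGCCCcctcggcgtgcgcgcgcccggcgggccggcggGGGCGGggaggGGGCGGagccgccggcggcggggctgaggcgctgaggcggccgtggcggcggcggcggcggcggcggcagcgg
WDR4: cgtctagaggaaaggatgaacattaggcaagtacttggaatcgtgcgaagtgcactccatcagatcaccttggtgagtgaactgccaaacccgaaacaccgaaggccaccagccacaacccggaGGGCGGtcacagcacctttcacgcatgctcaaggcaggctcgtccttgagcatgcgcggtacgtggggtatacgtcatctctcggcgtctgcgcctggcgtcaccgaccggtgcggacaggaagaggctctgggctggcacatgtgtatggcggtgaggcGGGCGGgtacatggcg
The YTHDF1 window held 1 E-box and 2 GC boxes, the ADARB1 window 5 GC boxes and the WDR4 window 2 GC boxes. GC content was 77.3% for YTHDF1, 84.3% for ADARB1 and 60.0% for WDR4, against a median of 58.3% over all 27305 windows. RefSeq windows were matched for 34 of the 40 genes. Across these, 21 windows (61.8%) held a GC box, against 44.6% of all windows and 68.7% of those of tested genes. The E-box was found in 9 windows (26.5%), those of ADAR, IGF2BP3, NAT10, PUS7, RBM15, RBM15B, TRMT6, TRMT61A and YTHDF1, against 7.44% of all windows and 9.89% of those of tested genes. It stood in 4 of 13 windows of genes called higher and in 5 of 19 windows of genes not called. The ETS core CCGGAAG was in 10 windows (29.4%), against 10.7% of all and 18.3% of tested genes. The AP-1 motif TGANTCA was in 1 window, that of ADAR (2.94% against 7.76% of all), and the SMAD palindrome GTCTAGAC in 0, against 0.201% of all. These are matches of letters, searched on both strands, and no binding was measured.

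Levels per kilobase of gene length, deposited as FPKM (fragments per kilobase and library size) and scaled close to TMM, differed widely between genes. TRMT112, a small protein that activates several methyltransferases, stood at 81.7 ± 6.002 FPKM with TGF-β1 and 89.4 ± 1.73 FPKM without (SD, n = 3 each). HNRNPA2B1, a nuclear RNA-binding protein and proposed m6A reader, had 81.5 ± 0.845 FPKM with TGF-β1 and 74.9 ± 4.75 FPKM without. At the other end, IGF2BP1 had 0.844 ± 0.0131 FPKM with TGF-β1 and 0.496 ± 0.0648 FPKM without, the lowest level of the 40 in both groups. The gene with the largest log2 fold change of the set was therefore also its least abundant per length. ADARB1 ranked 24th by FPKM in the TGF-β1 group and 18th in the untreated group.

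**Figure D3:**
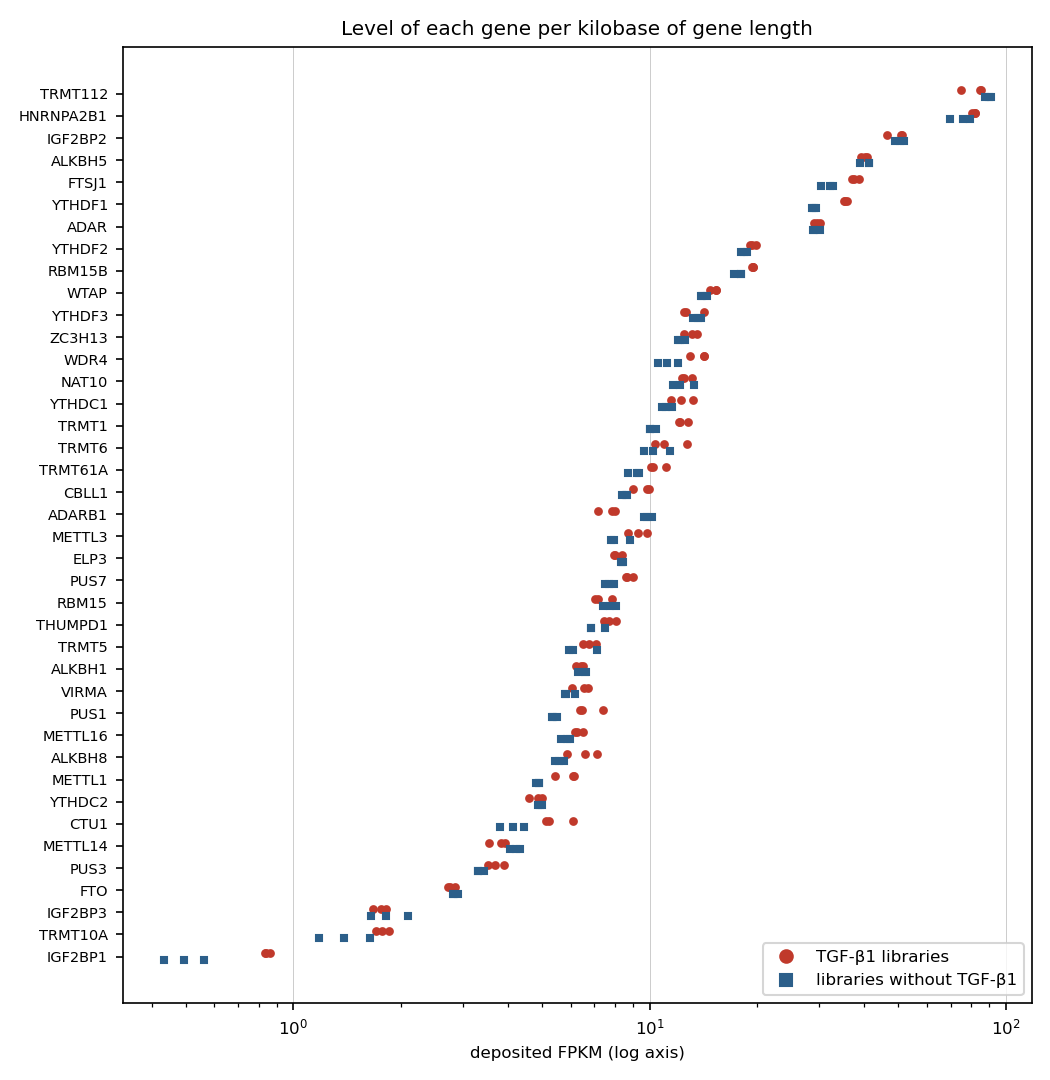
Deposited FPKM (log axis) of each of the 40 genes in every library, ordered by level, TGF-β1 libraries above and untreated libraries below on each line. Levels run from IGF2BP1 at the bottom (0.844 and 0.496 FPKM) to TRMT112 at the top (81.7 and 89.4 FPKM), and for most genes the groups lie close together beside that range.

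Among the 9 m6A writers, METTL3, RBM15B and CBLL1 rose with TGF-β1 under TMM scaling, none fell, and the median log2 fold change was 0.11. The share higher was 33.3%, against 20.2% of all tested genes, of which 18.7% were lower. METTL3, the catalytic subunit, had 59.7, 56.3 and 52.6 CPM in the TGF-β1 libraries and 47.1, 48.3 and 53.7 CPM in the untreated libraries. The groups overlapped, since TGF-β1 library 3 lay below untreated library 3. The log2 fold change of METTL3 was 0.18 ± 0.06 (SE, adjusted p = 0.0146), and it was not called without TGF-β1 library 1 (adjusted p = 0.0876), untreated library 1 (0.107) or untreated library 2 (0.0700). METTL14, the partner that helps METTL3 bind RNA, was lower in all 3 TGF-β1 libraries, with 27.0, 27.8 and 24.95 CPM with TGF-β1 and 28.6, 29.8 and 30.7 CPM without. Its values did not overlap, yet its log2 fold change of -0.16 ± 0.07 did not pass the test (adjusted p = 0.0936). With upper-quartile factors or library totals METTL14 was called lower, at -0.20 (adjusted p = 0.0270) and -0.28 (adjusted p = 0.00222). These moves were close to those of the median over all genes, from -0.01 to -0.05 and -0.13.

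The ratio of METTL14 to METTL3 does not depend on the scaling of a library. It was 0.389, 0.424 and 0.407 in the TGF-β1 libraries and 0.521, 0.530 and 0.491 in the untreated libraries, as FPKM over FPKM. Every TGF-β1 library lay below every untreated one, at the smallest p that 3 libraries against 3 allow (exact permutation test, two-sided, p = 0.1, adjusted over 16 ratios p = 0.229).

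RBM15B, which with RBM15 recruits the complex to target RNAs, rose by 0.13 ± 0.04 on the log2 scale (adjusted p = 0.00890) with no overlap between groups, and was not called without untreated library 1 (adjusted p = 0.0785). Its close relative RBM15 had a log2 fold change of -0.08 ± 0.07 (adjusted p = 0.392), and was called lower with library totals (-0.20, adjusted p = 0.0161). Exons of DCAF1 on the opposite strand cover 19.95% of the RBM15B exons, and DCAF1 itself had a log2 fold change of -0.08 ± 0.05 (adjusted p = 0.177). CBLL1, the ubiquitin-ligase-like subunit also called HAKAI, rose by 0.17 ± 0.06 (adjusted p = 0.0184); that call was lost without TGF-β1 library 1 (0.0675), TGF-β1 library 2 (0.0733) or untreated library 3 (0.0692). The adaptor WTAP, the scaffold VIRMA and the zinc finger protein ZC3H13, which keeps the complex in the nucleus, had log2 fold changes of 0.09, 0.12 and 0.09 that did not pass the test. VIRMA was called higher without TGF-β1 library 2 (adjusted p = 0.0195) or untreated library 3 (0.0470), and ZC3H13 without TGF-β1 library 1 (0.0167). METTL16, a separate writer with few known targets, stood at 0.11 ± 0.05 (adjusted p = 0.111). Summed over the 9 writers, 669 to 676 CPM were counted with TGF-β1 and 618 to 639 CPM without.

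Neither m6A eraser passed the test, and their intervals were narrow. FTO, which removes methyl groups from m6A and from the cap-adjacent m6Am, had 62.3, 60.7 and 59.4 CPM with TGF-β1 and 63.7, 62.5 and 61.7 CPM without, with a 95% interval of -0.15 to 0.06 for its log2 fold change. ALKBH5, a demethylase of nuclear m6A, had 134, 133 and 128 CPM with TGF-β1 and 135, 136 and 128 CPM without, with an interval of -0.10 to 0.06. The groups overlapped for both. With library totals alone, both were called lower, FTO at -0.16 and ALKBH5 at -0.14, close to the shift of all genes. The ratio of ALKBH5 to FTO was 14.4, 14.6 and 14.4 with TGF-β1 and 14.2, 14.6 and 13.9 without, with overlapping groups.

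Of the 9 m6A readers, IGF2BP1, YTHDF1, YTHDC1 and HNRNPA2B1 rose and none fell under TMM scaling, with a median log2 fold change of 0.08. The share higher was 44.4%, against 20.2% of all tested genes, of which 18.7% were lower. With library totals IGF2BP2 (-0.15, adjusted p = 6.67e-04), YTHDF3 (-0.18, 0.00300) and YTHDC2 (-0.16, 0.0197) were called lower. IGF2BP1 binds m6A-bearing and other mRNAs and protects them from decay; it is active in the fetus and largely silent in adult tissue. IGF2BP1 had 8.04, 7.82 and 7.84 CPM in the TGF-β1 libraries and 4.61, 4.07 and 5.28 CPM in the untreated libraries. The TGF-β1 values lay close together and all above the untreated ones, a 1.70-fold difference with a log2 fold change of 0.76 ± 0.15 (adjusted p = 6.55e-05). These values rest on 199, 224 and 203 counts with TGF-β1 and 144, 124 and 148 counts without. On log2(FPKM + 0.1) with limma the difference was 0.67 and missed the threshold (adjusted p = 0.0507), and on log2(FPKM + 1) without a filter on low values it was 0.30 (adjusted p = 0.0587).

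The other IGF2BP paralogs did not pass the test. IGF2BP2 had 227, 249 and 246 CPM with TGF-β1 and 253, 239.5 and 246 CPM without, and IGF2BP3 a log2 fold change of -0.09 ± 0.10 (adjusted p = 0.526). By FPKM, IGF2BP1 made up 1.62 ± 0.109% of the family with TGF-β1 and 0.938 ± 0.113% without, while IGF2BP2 made up 95.01 ± 0.165% and 95.6 ± 0.343% (mean ± SD, n = 3 each). The rise of IGF2BP1 thus left IGF2BP2 as nearly all of the family's transcripts per length in both groups. IGF2BP3 shares 17.9% of its exon length with another gene's exons.

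YTHDF1, a cytoplasmic reader studied for its effect on translation, had 119.7, 120.0 and 122 CPM with TGF-β1 and 99.2, 98.6 and 97.5 CPM without. Each group spanned a narrow range and the groups lay far apart beside it, with a log2 fold change of 0.29 ± 0.04 (adjusted p = 1.26e-07). Its paralogs YTHDF2, studied for mRNA decay, and YTHDF3 had log2 fold changes of 0.08 ± 0.05 (adjusted p = 0.202) and -0.06 ± 0.05 (adjusted p = 0.385). The YTHDF1 share of the family by FPKM was 52.1 ± 0.459% with TGF-β1 and 47.5 ± 0.0210% without. The ratio of YTHDF3 to YTHDF1 was 0.354, 0.359 and 0.397 with TGF-β1 and 0.468, 0.481 and 0.464 without, with no overlap (exact permutation test, p = 0.1, adjusted p = 0.229).

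YTHDC1, the nuclear reader linked to splicing and export, rose by 0.14 ± 0.05 (adjusted p = 0.0199) with overlapping groups, and was not called without TGF-β1 library 3 (adjusted p = 0.198), untreated library 1 (0.0676) or untreated library 3 (0.115). The helicase YTHDC2 stood at -0.04 ± 0.06 (adjusted p = 0.655). HNRNPA2B1 rose by 0.12 ± 0.03 (adjusted p = 0.00416) without overlap, and was not called without untreated library 2 (0.103), in which it was lowest.

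For ac4C, neither NAT10 nor THUMPD1 passed the test. NAT10, the acetyltransferase that forms ac4C on ribosomal and transfer RNA and has been reported to do so on mRNA, had 67.5, 66.4 and 70.8 CPM with TGF-β1 and 65.4, 72.3 and 62.9 CPM without. The untreated libraries held both the highest and the lowest value, and the 95% interval of the log2 fold change was -0.08 to 0.14. THUMPD1, the adaptor that brings NAT10 to transfer RNA, had 51.5, 53.9 and 49.6 CPM with TGF-β1 and 49.99, 45.8 and 46.0 CPM without. Its log2 fold change of 0.13 ± 0.06 missed the threshold (adjusted p = 0.0827) and passed it without untreated library 1 (0.0457).

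The editing enzymes differed from each other. ADAR, which deaminates adenosine in double-stranded RNA and limits sensing of the cell's own RNA, had 294, 289 and 299.6 CPM with TGF-β1 and 299, 291 and 288 CPM without, with overlapping groups and a 95% interval of -0.06 to 0.07. ADAR was called lower with library totals alone (-0.11, adjusted p = 0.00481), again close to the shift of all genes. ADARB1, the second catalytically active deaminase and known for editing of glutamate receptor mRNA in neurons, had 81.1, 74.2 and 82.3 CPM with TGF-β1 and 99.3, 105 and 102 CPM without. All 3 TGF-β1 values lay below all untreated values, a fall of 22.5% with a log2 fold change of -0.37 ± 0.05 (adjusted p = 1.28e-08). ADARB1 was called lower under each of the 18 alternative settings. Outside the editing enzymes, YTHDF1, FTSJ1, TRMT1, PUS1 and WDR4 likewise kept their higher calls under all 18. By FPKM, ADARB1 made up 20.6 ± 0.646% of the sum of both enzymes with TGF-β1 and 25.2 ± 0.846% without. The editing of transcripts was not measured.

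**Figure D4:**
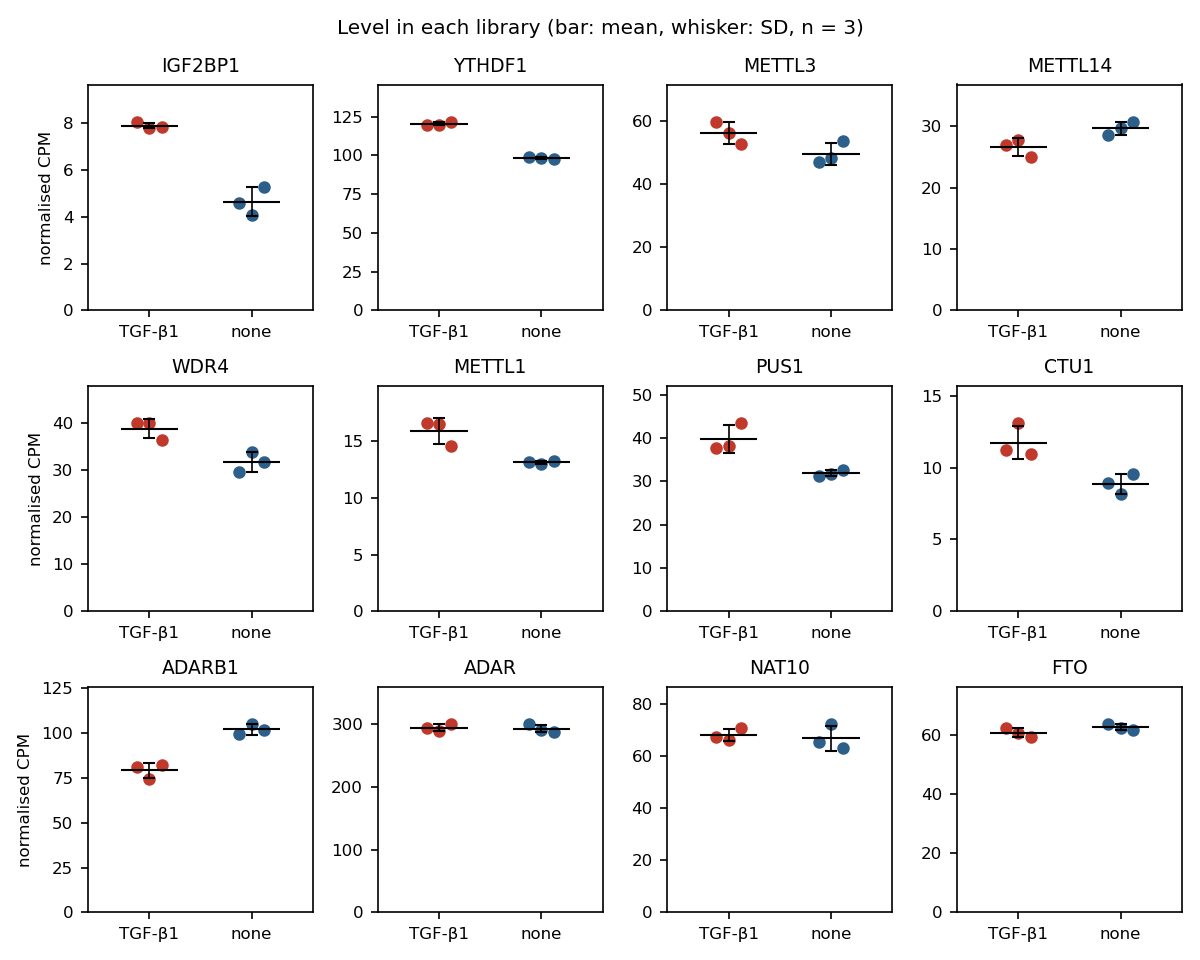
Normalised CPM of 12 genes in each library, TGF-β1 left of untreated, with a bar at each group mean and whiskers for the SD (n = 3). IGF2BP1, YTHDF1 and PUS1 lie higher in every TGF-β1 library, ADARB1 lies lower, and METTL3 overlaps.

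Under TMM scaling, the tRNA methyltransferase group held 5 genes that rose (METTL1, WDR4, TRMT1, TRMT61A and FTSJ1) and 1 that fell (TRMT112) of 9, with a median log2 fold change of 0.25. These shares of 55.6% and 11.1% stand against 20.2% and 18.7% of all tested genes. METTL1 and WDR4 are the catalytic and the scaffold subunit of the enzyme that sets 7-methylguanosine in the variable loop of transfer RNA. METTL1 had 16.6, 16.5 and 14.6 CPM with TGF-β1 and 13.1, 13.0 and 13.2 CPM without, and WDR4 had 39.98, 40.1 and 36.6 CPM with TGF-β1 and 29.7, 34.0 and 31.7 CPM without. Neither gene's groups overlapped. The log2 fold changes were 0.27 ± 0.10 for METTL1 (adjusted p = 0.0273) and 0.29 ± 0.07 for WDR4 (adjusted p = 6.79e-04). The ratio of WDR4 to METTL1 was 2.31, 2.33 and 2.40 with TGF-β1 and 2.16, 2.50 and 2.29 without, with overlapping groups. METTL1 was called without TGF-β1 library 3 and lost with any other library left out (adjusted p 0.0584 to 0.0913). Exons of CYP27B1 on the same strand and of EEF1AKMT3 on the opposite strand cover 23.4% of the METTL1 exons; these neighbours had log2 fold changes of -0.19 ± 0.13 (adjusted p = 0.294) and -0.06 ± 0.15 (adjusted p = 0.789), and whether counting used the strand is not stated in the labels.

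TRMT1, which dimethylates a guanosine in the core of transfer RNA, had 41.8, 44.3 and 42.0 CPM with TGF-β1 and 34.7, 34.9 and 36.3 CPM without. FTSJ1, an X-linked ribose methyltransferase of the anticodon loop, had 111, 115 and 109 CPM with TGF-β1 and 96.6, 94.9 and 89.8 CPM without. For both genes every TGF-β1 library lay above every untreated one, at log2 fold changes of 0.28 ± 0.06 for TRMT1 (adjusted p = 4.31e-04) and 0.25 ± 0.04 for FTSJ1 (adjusted p = 6.64e-06). These genes fall outside the rule for values in every library and were chosen after their values were seen. TRMT61A, the catalytic subunit of the 1-methyladenosine enzyme of the T loop, rose by 0.20 ± 0.07 (adjusted p = 0.0201) but was not called without TGF-β1 library 1 (0.0952) or untreated library 1 (0.107). Its partner TRMT6 had 0.12 ± 0.07 (adjusted p = 0.196) and was called higher without TGF-β1 library 1 (0.0404). TRMT5 and TRMT10A, which form 1-methylguanosine at different sites of transfer RNA, had 0.09 ± 0.07 (adjusted p = 0.360) and 0.34 ± 0.15 (adjusted p = 0.0633); TRMT10A was called higher without untreated library 1 (0.0259).

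TRMT112, the activator, had 125, 143 and 141 CPM with TGF-β1 and 150.1, 147 and 152 CPM without. TGF-β1 library 1 was the lowest and the other libraries of that group lay near the untreated ones, though below them. The log2 fold change was -0.13 ± 0.04 (adjusted p = 0.0108), and the call was lost without TGF-β1 library 1 (-0.07, adjusted p = 0.189) or untreated library 3 (-0.12, adjusted p = 0.0501). Exons of ESRRA on the opposite strand cover 17.5% of the TRMT112 exons, and ESRRA had a log2 fold change of 0.40 ± 0.06 (adjusted p = 9.90e-07). TRMT112 has 7 pseudogene copies in the table, each with 10 counts or fewer in every library.

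Of the 3 pseudouridine synthases, PUS1 and PUS7 rose under TMM scaling and PUS3 did not pass the test, where 20.2% of all tested genes rose. PUS1, which acts on nuclear and mitochondrial transfer RNA, had 37.6, 38.2 and 43.4 CPM with TGF-β1 and 31.3, 31.7 and 32.6 CPM without. TGF-β1 library 3 was the highest, and all TGF-β1 libraries lay above the untreated ones, at a log2 fold change of 0.32 ± 0.07 (adjusted p = 2.01e-04). PUS7, which modifies transfer RNA and some mRNAs, rose by 0.18 ± 0.06 (adjusted p = 0.0266) without overlap and was not called without TGF-β1 library 1 (0.0744), untreated library 2 (0.0629) or untreated library 3 (0.104). PUS3, an enzyme of the anticodon arm, had 0.14 ± 0.14 (adjusted p = 0.455).

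Among the 4 genes of wobble uridine modification and tRNA demethylation, CTU1 and ALKBH8 rose under TMM scaling, where 20.2% of all tested genes rose. CTU1, which thiolates the wobble uridine together with CTU2, had 11.2, 13.1 and 10.9 CPM with TGF-β1 and 8.89, 8.17 and 9.53 CPM without. All TGF-β1 values lay above the untreated values, with TGF-β1 library 2 the highest, at a log2 fold change of 0.41 ± 0.12 (adjusted p = 0.00581). Without TGF-β1 library 2 it was 0.32 (adjusted p = 0.0614). ALKBH8, the methyltransferase and hydroxylase of the same uridine, rose by 0.22 ± 0.08 (adjusted p = 0.0188) and was not called without TGF-β1 library 3 (0.152), untreated library 1 (0.0575) or untreated library 3 (0.0768). ELP3, the catalytic subunit of the Elongator complex that starts this pathway, had -0.05 ± 0.06 (adjusted p = 0.562; called lower with library totals at -0.17, adjusted p = 0.0191), and the demethylase ALKBH1 had -0.03 ± 0.09 (adjusted p = 0.812).

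Within libraries, 16 ratios between partners or paralogs were compared by FPKM. Groups did not overlap for 7 of them, where 47.4% of all tested genes did not overlap as single genes. The 7 are not separate results, since IGF2BP1 and YTHDF1 recur among these ratios. Besides those given above, the ratio of ADARB1 to ADAR was 0.266, 0.248 and 0.265 with TGF-β1 and 0.320, 0.349 and 0.342 without. IGF2BP3 to IGF2BP1 was 1.95, 2.11 and 2.17 with TGF-β1 and 4.27, 3.81 and 3.24 without. RBM15B to RBM15 was 2.73, 2.77 and 2.48 with TGF-β1 and 2.33, 2.24 and 2.33 without. For the first pair and the second, every TGF-β1 library lay below every untreated one, and for the third every TGF-β1 library lay above; in each pair a single gene was called (ADARB1, IGF2BP1 and RBM15B). The other non-overlapping ratios were YTHDF2 to YTHDF1 and IGF2BP2 to IGF2BP1, both lower with TGF-β1. Each of the 7 had an exact permutation p of 0.1, the smallest possible with 3 libraries a group, and an adjusted p of 0.229, so none passed the correction. Partners whose ratios overlapped included WDR4 and METTL1, THUMPD1 and NAT10, and TRMT61A and TRMT6.

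**Figure D5:**
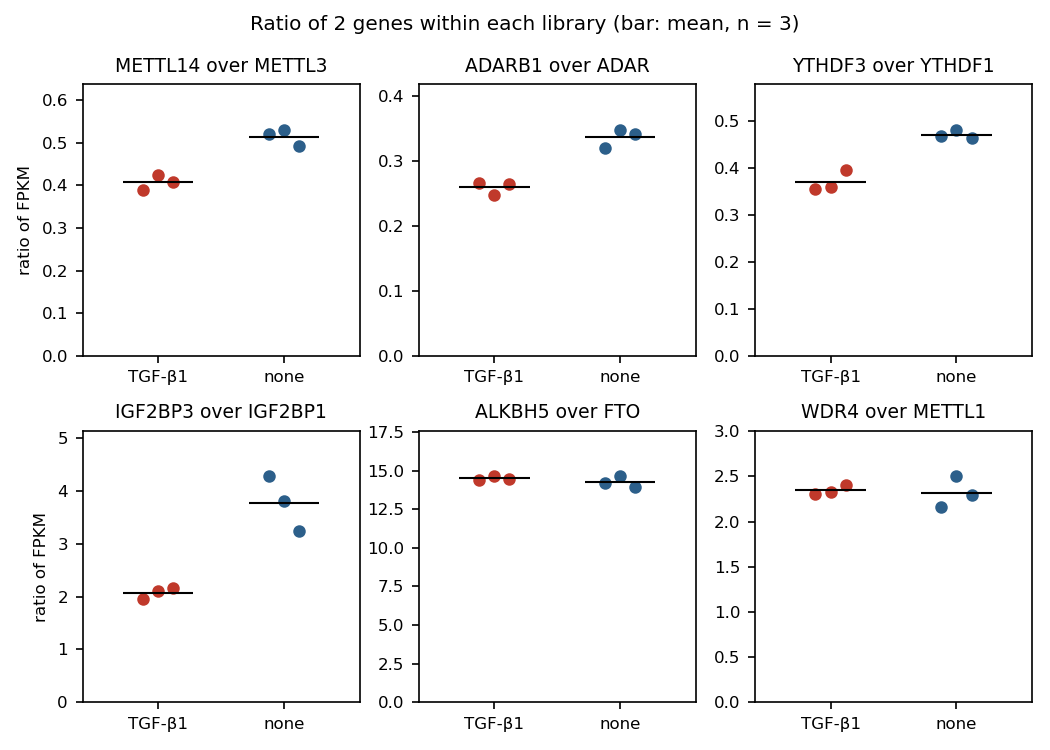
Ratio of the FPKM of 2 genes within each library, for 6 of the 16 pairs, TGF-β1 left of untreated, with a bar at each mean (n = 3). METTL14 over METTL3, ADARB1 over ADAR, YTHDF3 over YTHDF1 and IGF2BP3 over IGF2BP1 lie lower in every TGF-β1 library; ALKBH5 over FTO and WDR4 over METTL1 overlap.

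The spread among replicates of the 40 genes was small. Their median coefficient of variation was 4.19% in the TGF-β1 group and 2.92% in the untreated group, against 7.51% and 6.91% over all tested genes. These sets were not matched for level, so the smaller spread is not shown to be a trait of the 40 genes. In the TGF-β1 group, library 3 lay farthest from the group mean for 19 of the 40 genes (47.5%), against 31.8% of all tested genes. YTHDC1, ALKBH8 and PUS1 were highest in that library, and CBLL1, METTL1 and WDR4 lowest. Without it, 14 of the 40 genes were called higher and 2 lower, and over all 18015 genes then tested 3233 and 2880.

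A further list of 96 RNA modification genes, outside the 40, gives the rest of the pathways; 93 of them were tested, and 14 rose and 10 fell (25.8% called, against 38.9% of all tested genes), with a median log2 fold change of 0.04. The split was 5 higher and 24 lower with library totals and 8 and 15 with upper-quartile factors; 9 were higher without untreated library 1, and 6 lower without TGF-β1 library 3. Of these, genes with a log2 fold change of 0.5 or more in size were YRDC, QTRT2, APOBEC3C and APOBEC3G. YRDC, which makes the precursor of N6-threonylcarbamoyladenosine in transfer RNA, had 28.7, 27.9 and 31.2 CPM with TGF-β1 and 18.2, 18.4 and 19.9 CPM without, at a log2 fold change of 0.64 ± 0.08 (adjusted p = 1.33e-08). QTRT2, a subunit of the enzyme that inserts queuine, had 43.9, 39.6 and 40.1 CPM with TGF-β1 and 29.1, 29.2 and 28.9 CPM without, at 0.50 ± 0.07 (adjusted p = 5.28e-08). Neither gene's groups overlapped. The list of threonylcarbamoyl, isopentenyl, wybutosine and queuosine genes held 4 that rose and 2 that fell of 17. These shares of 23.5% and 11.8% stand against 20.2% and 18.7% of all tested genes.

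Both named genes that fell are cytidine deaminases. APOBEC3C had 21.9, 24.5 and 23.1 CPM with TGF-β1 and 33.5, 33.4 and 34.3 CPM without, at -0.54 ± 0.07 (adjusted p = 7.66e-08). APOBEC3G had 2.22, 1.74 and 1.62 CPM with TGF-β1 and 3.39, 3.08 and 2.75 CPM without, at -0.73 ± 0.24 (adjusted p = 0.0127); it was not called without TGF-β1 library 3 (0.0572) or untreated library 1 (0.0608). All TGF-β1 values lay below the untreated ones for both genes, which belong to a family of close paralogs among which reads can be split. Of the 6 tested genes in the list of other editing enzymes these 2 fell and none rose, and ADARB2, APOBEC1 and APOBEC3B were too low to test. In the list of cap and ribosomal RNA enzymes 4 of 10 rose and 1 fell, in other tRNA methylation 3 rose and 2 fell of 22, and in other m6A and m6Am genes 2 rose and none fell of 11. Among pseudouridine and dihydrouridine genes 1 of 13 fell and none rose, and among Elongator and thiolation genes 1 of 14 rose and 2 fell. For each of these lists the matching shares over all tested genes are 20.2% higher and 18.7% lower.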

How the data were processed

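Reads were handled with fastp and HISAT2 2.2.1 on build hg38, per the submitters' processing notes; how reads were counted, with or without strand, and on which annotation is not given in the sources used. The deposited count table holds whole-number read counts per gene, and the authors' FPKM table holds the same counts per kilobase of the deposited gene length (in bases) and per library size. In each table, 6 further per-sample columns matched no sample and were not used. Gene identifiers and positions of all 58735 genes matched GENCODE release 29, which gave the exon overlaps.

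Counts were tested with edgeR 4.0.16 in R 4.3.3 (filterByExpr at a minimum count of 10, TMM factors, robust quasi-likelihood fit, group as the only term, two-sided) over 17215 genes, with Benjamini-Hochberg adjustment and a threshold of 0.05. CPM values use TMM-scaled library sizes; SE is the absolute log2 fold change over the square root of the F statistic. Depth was 25828504 to 30034762 counts per library, and the biological coefficient of variation was 5.62%. Ratios used an exact permutation test over the 20 splits of 6 libraries. In 5 simulated sets of 17215 genes with 200 changed, the test recovered 6.85% of genes changed 1.1-fold, 41.1% changed 1.25-fold, 64.4% changed 1.5-fold and 82.1% changed 2-fold, and 8.37% of calls were false.

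The 40 genes, the further list, the pairs and the tests were chosen with earlier results of these data known. Values in every library are given for called genes with a log2 fold change of 0.3 or more in size and for METTL3, METTL14, FTO, ALKBH5, NAT10, THUMPD1, ADAR, ADARB1, METTL1 and WDR4 whatever their result, and further genes so shown were chosen after their values were seen. Of the further list, called genes with a log2 fold change of 0.5 or more in size and a mean of at least 1 CPM are named. Alternatives were other scalings and filters, DESeq2 1.42.0, limma 3.58.1 on counts (voom) and on log2 FPKM, the replicate number as a block, and each library left out. Promoter windows come from RefSeq (GRCh38.p14) and were searched in Python 3.11.15.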

Additional observations from a re-analysis of the deposited data

How the results depend on the processing

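Among the 40 genes, the 16 higher calls became 7 with upper-quartile factors, 6 with library totals alone, 9 with limma on log2(FPKM + 1) without a filter and 12 to 14 with 1 library left out. The 2 lower calls became 11 with library totals, 1 in each of the 3 limma fits on FPKM, and 1 to 2 with 1 library left out. In the further list, the 14 higher calls became 8, 5 and 8 under the first 3 of these settings and 9 to 15 with 1 library left out, and the 10 lower calls became 24 with library totals, 4 with limma without a filter and 6 to 11 with 1 library left out. Over all genes, library totals gave 2019 higher and 5354 lower calls (27.4% higher, against 51.8% with TMM), and limma without a filter 1881 lower. Upper-quartile factors gave 2821 higher and 3897 lower calls over all genes (42.0% higher). ADAR changed direction with library totals, at -0.11 (adjusted p = 0.00481). Library totals in place of TMM factors moved the median over all genes from -0.01 to -0.13. Which scaling is nearer the true levels was not tested, and neither was the cause of the other changes. The counts under DESeq2, limma-voom, DESeq2 size factors, a fit that was not robust and the filter of 1 CPM stayed within 1.5 times those reported. Same-numbered libraries did not deviate together (correlations of -0.005, 0.011 and -0.009), so no pairing by number was seen. Whether same-numbered libraries were handled together cannot be told from this. With the replicate number as a block, 16 of the 40 genes were higher and 2 lower, and over all genes 3431 higher and 3182 lower. The difference between groups in each of the 16 log2 ratios shifted by less than the replicate SD when 1 library was left out or counts plus 0.5 replaced FPKM. With 3 libraries a group, a gene that was not called is not shown to be unchanged. The simulation cannot say how often changed genes were missed here, or what share of the calls reported here is false. It changed 200 of 17215 genes drawn from all tested genes, while 38.9% of tested genes were called in the data.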
